A study of Mus musculus with 36 samples.

Results

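The corticotropin-releasing hormone (CRH) system was followed in the brains of mice treated with diazepam (DZP) for 10 days. Its 7 genes were chosen by symbol, as the transcript clusters whose only gene symbol in the array annotation was Crh, Ucn, Ucn2, Ucn3, Crhr1, Crhr2 or Crhbp. Each gene had 1 cluster, so the system made up 7 of the 65956 transcript clusters that carried no control. The same genes held 108 of the 719071 exon-level probe sets, of which 64 were probe selection regions (PSRs, stretches of an exon) and 44 were exon junctions. The set was selected on earlier results of these arrays, and Crhbp and Ucn3 were among the genes that the study itself listed from them. Their differences between DZP and vehicle are therefore a description of these arrays. The study also measured Crhbp, but not Ucn3, by quantitative PCR (qRT-PCR). It reported no apparent changes there for any gene but Lcn2, a gene outside this system.

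CRH and the urocortins are peptides that act on a pair of G protein-coupled receptors, which raise cyclic AMP in the cell through Gs. CRH made in the hypothalamus starts the hormonal stress response, whereas CRH released by cells of the cortex, hippocampus and amygdala acts locally on arousal, anxiety and memory. The CRH-binding protein is a secreted glycoprotein that holds CRH and urocortin 1 away from the receptors, and in rodent brain it is made in large part by GABA neurons.

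Male C57BL/6 mice aged 8 weeks received DZP or its vehicle Intralipid, a lipid emulsion (Ctrl), for 10 days. The labels give 5 mg/ml at 8:00 and 18:00, which is a concentration and not a dose per body weight, and the methods of the study give a dose per body weight and another hour for the second injection. Cortex, hippocampus and amygdala were each read on 3 Ctrl and 3 DZP arrays (Affymetrix MTA 1.0), 18 arrays in all, and each array was summarised at gene level and at exon level, which gives 36 GEO samples. All mice of both groups were anaesthetised with medetomidine, midazolam and butorphanol before the brain was taken, and midazolam is itself a benzodiazepine. The labels call the arrays replicates from separate mice, the 3 regions come from one set of mice, and no label says which arrays share a mouse. Each array measured RNA of a whole tissue piece, so fewer cells of a type and less RNA per cell cannot be told apart.

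Signal intensity is given as log2, on which a difference of 1 is a doubling of signal. Array medians lay between 5.86 and 6.03 at gene level and between 6.90 and 6.94 at exon level. The mean over the array's 5222 negative-control probe sets lay between 6.71 and 6.80 at gene level. The amygdala arrays had the highest mean of the 17 measured amygdala markers (7.47 to 7.75 in Ctrl, against 6.48 to 6.58 in cortex and 6.85 to 6.91 in hippocampus). Arrays of a group differed in neighbouring tissue. The mean of 10 choroid plexus and ependyma markers was 6.17, 8.50 and 6.98 in the Ctrl hippocampus arrays, 7.68, 7.78 and 6.12 in the DZP hippocampus arrays, and 6.13, 6.21 and 8.37 in the Ctrl amygdala arrays. DZP hippocampus arrays 1 and 2 stood apart from array 3. Deviations of the 5222 negative-control probe sets correlated at r = 0.089 between arrays 1 and 2, and at -0.046 to -0.027 with array 3. The Ctrl hippocampus arrays gave 0.072 to 0.126 among themselves, and the Ctrl amygdala arrays gave -0.057 to 0.026. A low correlation within a group was thus also seen in Ctrl amygdala. With the Ctrl hippocampus arrays, DZP hippocampus arrays 1 and 2 gave -0.076 to 0.017 and array 3 gave 0.002 to 0.033. With the DZP amygdala arrays, DZP hippocampus arrays 1 and 2 gave -0.023 to 0.087 and array 3 gave -0.141 to -0.103. These values do not tell which DZP hippocampus arrays are unusual. The exon-level calls of DZP against Ctrl in hippocampus over all probe sets went from 383 to 12739 without array 3. The main values that rest on arrays 1 and 2 are also given without them, which leaves 1 DZP hippocampus array.

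Crhbp, which encodes the binding protein, was above the negative-control mean on 18 of 18 arrays, and in each region its DZP arrays were all lower than its Ctrl arrays. The cluster maps to chromosome 13. Its promoter is shown first, from RefSeq (GRCm38.p6, 250 bases before to 50 after the annotated start), together with that of Ucn3 on the same chromosome, because these genes had the largest differences between DZP and Ctrl. Promoters of 5 of the 7 genes could be matched. The searched motifs were the cyclic AMP response element (TGACGTCA), its half-site (TGACG, which the full element contains) and the TATA box (TATAAA), each on both strands. Capitals mark the matches, which in Crhbp are a half-site on the opposite strand and a TATA box after the annotated start, and neither is evidence of a bound factor.
Crhbp, chr13:95444782-95445081, minus strand: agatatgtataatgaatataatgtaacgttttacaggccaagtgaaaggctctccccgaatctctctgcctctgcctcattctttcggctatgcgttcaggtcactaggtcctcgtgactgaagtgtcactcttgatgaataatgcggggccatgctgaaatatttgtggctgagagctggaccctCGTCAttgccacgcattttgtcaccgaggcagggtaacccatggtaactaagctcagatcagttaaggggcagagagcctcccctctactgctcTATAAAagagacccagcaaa
Ucn3, chr13:3945300-3945599, minus strand: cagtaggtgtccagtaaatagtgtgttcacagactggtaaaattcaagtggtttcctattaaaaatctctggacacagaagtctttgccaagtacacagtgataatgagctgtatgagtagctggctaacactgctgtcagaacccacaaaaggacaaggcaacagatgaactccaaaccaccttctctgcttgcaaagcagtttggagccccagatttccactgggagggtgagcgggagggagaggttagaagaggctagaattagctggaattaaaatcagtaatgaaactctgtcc

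Of 32851 promoters of this length, 20.8% hold the half-site, 1.79% the full element and 13.6% the TATA box. The Ucn3 promoter holds none of them and that of Crhr1 holds none, whereas the Ucn promoter holds the full element 44 bases before the start (position -44) and the Crhr2 promoter a TATA box at position -39.

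Crh, the hormone itself, gave 7.06, 7.23 and 7.001 in Ctrl cortex, 6.37, 6.16 and 6.30 in Ctrl hippocampus, and 7.09, 7.12 and 7.01 in Ctrl amygdala. The hippocampus arrays were below every array of the other regions, and cortex and amygdala overlapped. In DZP mice the values were 7.52, 6.69 and 7.11 in cortex, 6.55, 6.46 and 6.54 in hippocampus, and 7.004, 6.96 and 6.71 in amygdala. All 3 DZP arrays were above Ctrl in hippocampus and all 3 were below Ctrl in amygdala, while the DZP cortex arrays spread on both sides of Ctrl. The mean differences were 0.01 (95% confidence interval -0.31 to 0.32) in cortex, 0.24 (-0.08 to 0.56, and 0.26 without DZP hippocampus arrays 1 and 2) in hippocampus and -0.18 (-0.50 to 0.13) in amygdala. The adjusted p (limma, Benjamini-Hochberg over all clusters) was 0.998, 0.596 and 0.726, so that none of these differences passed the test. Crh was above the negative-control mean on 10 of 18 arrays, and every hippocampus array of both treatments was below it.

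Ucn encodes urocortin 1, which binds both receptors. Its signal was between 4.29 and 4.73 on all 18 arrays, below the negative-control mean, with Ctrl means of 4.37 ± 0.07 (SD, n = 3) in cortex, 4.65 ± 0.07 in hippocampus and 4.48 ± 0.04 in amygdala. DZP arrays averaged 4.45 ± 0.03, 4.57 ± 0.11 and 4.54 ± 0.11. The DZP cortex arrays (4.45, 4.43 and 4.48) lay just above the Ctrl cortex arrays (4.42, 4.40 and 4.29), a difference of 0.08 (SE 0.08, adjusted p = 0.874), and the groups overlapped in the other regions. The hippocampus difference was -0.07, and -0.12 without DZP hippocampus arrays 1 and 2.

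Ucn2, which encodes a urocortin selective for the type 2 receptor, gave 3.74 to 4.34, below the negative-control mean on every array. Its differences between DZP and Ctrl were 0.02 in cortex, 0.18 in hippocampus and 0.24 (95% confidence interval 0.03 to 0.45) in amygdala, with adjusted p from 0.484 upward in limma. The hippocampus difference was 0.12 without DZP hippocampus arrays 1 and 2. The Ctrl and DZP arrays overlapped in each region. At this signal the arrays cannot show whether the gene is expressed.

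Ucn3 encodes the other urocortin selective for the type 2 receptor, and it is known from cells of the medial amygdala. The Ctrl amygdala arrays gave 6.31, 6.03 and 5.81 and the DZP amygdala arrays 5.34, 5.35 and 5.37. The groups did not overlap, and the DZP arrays lay close together (SD 0.02). The difference was -0.70 (SE 0.12, 95% confidence interval -0.95 to -0.44), 1.62-fold lower, with an adjusted p of 0.114, which did not pass. In cortex (Ctrl 4.74, 4.75 and 4.77, DZP 4.72, 4.64 and 4.52) and hippocampus (Ctrl 4.55, 4.93 and 4.92, DZP 4.79, 4.97 and 4.71) Ucn3 was below 5 on every array and the groups overlapped in hippocampus but not in cortex, with differences of -0.13 and 0.02 (adjusted p = 0.879 and 0.967). The hippocampus difference was -0.09 without DZP hippocampus arrays 1 and 2. The test of the amygdala difference against the hippocampus difference gave -0.72 (SE 0.17, adjusted p = 0.302), and -0.61 (adjusted p = 0.589) without DZP hippocampus arrays 1 and 2. Without Ctrl amygdala array 3, the amygdala difference was -0.82 (adjusted p = 0.0479) and passed. All 18 Ucn3 values were below the negative-control mean.

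Marker lists of the amygdala and of neighbouring tissue also differed on average between Ctrl and DZP amygdala, with overlapping arrays in each list. The mean of 17 amygdala markers was 7.66, 7.75 and 7.47 in Ctrl and 7.40, 7.42 and 7.55 in DZP amygdala, with 13 of 17 lower in DZP and a median difference of -0.11 (0.03 over all clusters). The mean of 14 striatal markers was 8.82, 9.26 and 8.32 in Ctrl and 9.78, 9.98 and 8.93 in DZP, with 14 of 14 higher and a median difference of 0.76. All 10 choroid plexus and ependyma markers were lower in DZP on average. Their mean was 6.13, 6.21 and 8.37 in Ctrl and 6.12, 6.19 and 6.21 in DZP amygdala. Ctrl array 3, at 8.37, had the lowest Ctrl amygdala value of Ucn3 (5.81). No gene of these lists passed the test in amygdala, where no cluster did (0%). The part of these lists in the Ucn3 difference was not tested.

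**Figure D1:**
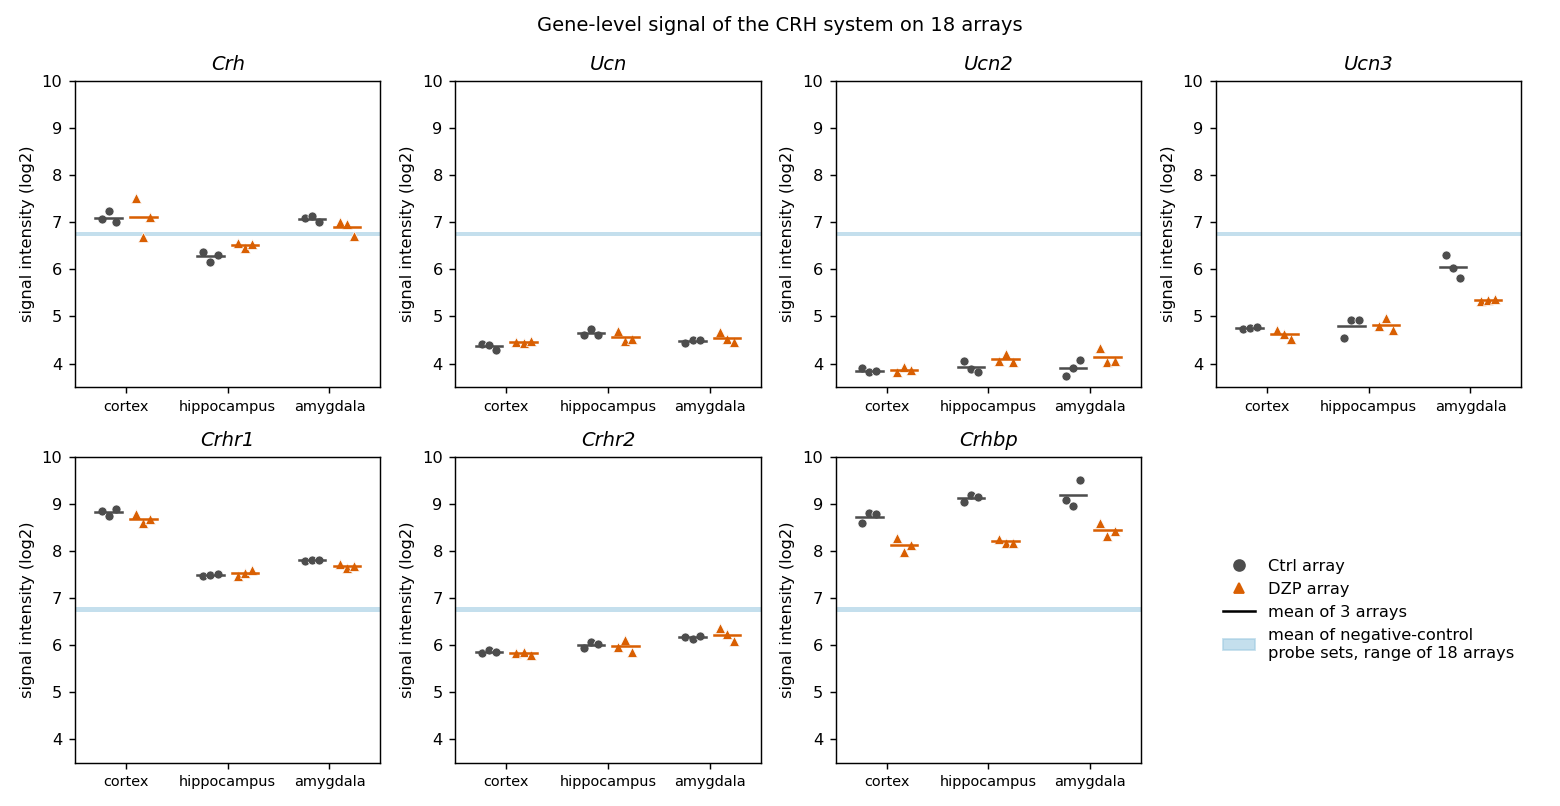
Signal intensity (log2, vertical axis) of the 7 genes on each of the 18 gene-level arrays, by region (horizontal axis) and treatment, 1 panel a gene. Points are arrays, bars are group means, and the shaded band marks the range of the negative-control mean. Crhbp lies lower in DZP in all 3 regions, Ucn3 reaches 5.81 or more only in Ctrl amygdala, and Ucn, Ucn2, Ucn3 and Crhr2 stay below the negative-control mean.

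Crhr1, the receptor with high affinity for CRH, gave 8.85, 8.73 and 8.89 in Ctrl cortex, 7.47, 7.50 and 7.51 in Ctrl hippocampus, and 7.79, 7.81 and 7.81 in Ctrl amygdala. These regions did not overlap. The DZP arrays gave 8.79, 8.59 and 8.68, 7.46, 7.54 and 7.60, and 7.73, 7.63 and 7.68 in the same order of regions. In amygdala the DZP arrays were all below the Ctrl arrays (difference -0.13, 95% confidence interval -0.27 to 0.02, adjusted p = 0.578). The differences in cortex (-0.14, adjusted p = 0.664) and hippocampus (0.04, adjusted p = 0.892) came from overlapping groups, and the latter was 0.10 without DZP hippocampus arrays 1 and 2.

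Crhr2, the receptor that all urocortins bind, lay between 5.79 and 6.36. Its differences between DZP and Ctrl were -0.04, -0.03 and 0.06 in cortex, hippocampus and amygdala, with adjusted p of 0.966, 0.944 and 0.845 in limma. The hippocampus difference was -0.14 without DZP hippocampus arrays 1 and 2. Ctrl and DZP overlapped in each region.

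Crhbp gave 8.58, 8.81 and 8.77 in Ctrl cortex against 8.28, 7.97 and 8.12 in DZP cortex. In hippocampus it gave 9.04, 9.18 and 9.15 in Ctrl and 8.26, 8.17 and 8.17 in DZP. In amygdala it gave 9.09, 8.94 and 9.51 in Ctrl and 8.58, 8.31 and 8.42 in DZP. In each region the highest DZP array was below the lowest Ctrl array, and the Ctrl amygdala arrays varied most (SD 0.29). The differences were -0.60 (SE 0.12, adjusted p = 0.147) in cortex, -0.92 (adjusted p = 0.00902) in hippocampus and -0.74 (adjusted p = 0.114) in amygdala. These were 1.51-, 1.90- and 1.67-fold lower signals, and the hippocampus passed the test. Averaged over the regions, the difference was -0.75 (SE 0.07, 95% confidence interval -0.91 to -0.60, adjusted p = 0.000586). This fit treats all arrays as independent, although the regions come from one set of mice. Its SE, interval and p therefore make no allowance for arrays that share a mouse. Every value over the mean of regions in this report has that limit. The regional differences were not shown to be unequal: hippocampus against cortex gave -0.33 (adjusted p = 0.627), amygdala against cortex -0.14 (adjusted p = 0.884) and amygdala against hippocampus 0.18 (adjusted p = 0.781).

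The call for Crhbp in hippocampus held in 5 of the 6 limma fits with 1 compared array left out. It was lost without Ctrl hippocampus array 2 (-0.89, adjusted p = 0.0745). Without DZP hippocampus arrays 1 and 2 the difference was -0.96, from 1 DZP array whose spread cannot be estimated. The mean over regions was -0.77 without those arrays.

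Counted over the 7 genes, 1 (Crhbp) was called lower in hippocampus, against 48 of all clusters (0.0728%), and none was called in cortex, where 24 clusters were (0.0364%), or in amygdala, where no cluster was (0%). In amygdala 3 of the genes and 6203 clusters (9.40%) had an unadjusted limma p under 0.05. Over the mean of regions 1 gene was called (Crhbp), against 52 clusters (0.0788%). Since these contrasts chose the genes, nothing is read from the counts. Groups did not overlap for 3 genes in cortex (1 higher, 2 lower, against 14.6% of all clusters in either direction), for 2 in hippocampus (1 higher, 1 lower, against 16.1%) and for 4 in amygdala (0 higher, 4 lower, against 13.1%). Crhbp was 1 of the 34 clusters (0.0515%) that were lower without overlap in all 3 regions. No gene of the system was called in the tests between regional differences, in which 3 (0.00455%), 0 (0%) and 8 (0.0121%) clusters were called for hippocampus against cortex, amygdala against cortex and amygdala against hippocampus. The genes other than Crhbp differed by -0.14 to 0.08 in cortex, by -0.07 to 0.24 in hippocampus and by -0.70 to 0.24 in amygdala.

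**Figure D2:**
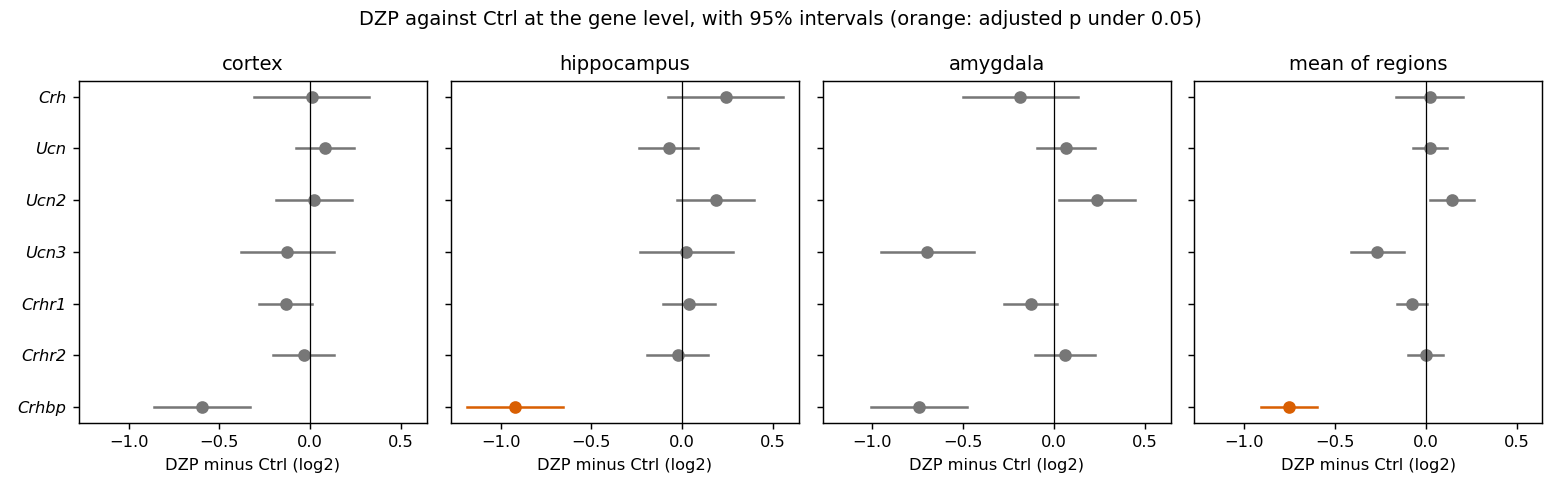
Difference of DZP from Ctrl (log2, horizontal axis) for the 7 genes in cortex, hippocampus and amygdala and averaged over the regions. Points are fitted differences and bars their 95% confidence intervals, from 3 arrays a group, in orange where the adjusted test was passed. Crhbp lies below 0 in every region, from -0.60 to -0.92, and Ucn3 reaches -0.70 in amygdala.

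The exon-level probe sets show which stretches of each gene carried the signal. Crhbp had 8 PSRs and 7 junctions. Of these 15, 15 were lower in DZP cortex (8 without overlap), 13 in hippocampus (11 without overlap) and 13 in amygdala (9 without overlap), with median differences of -0.58, -0.997 and -0.70. Over all probe sets, 6.22%, 7.51% and 6.30% were lower without overlap in these regions. The probe sets of 1 gene are not independent of each other. In hippocampus 4 were called lower, against 0.0533% of all probe sets, and in cortex and amygdala none was, against 0% and 0.000278%. Over the mean of regions all 15 were lower and 3 were called, against 0.00320%. With DZP array 3 alone set against the Ctrl mean, with no test, 14 of the 15 were lower in hippocampus, with a median of -1.02.

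The junction JUC1300008686 had the largest difference. It gave 6.01, 6.64 and 6.61 in Ctrl cortex and 6.48, 5.00 and 4.72 in DZP cortex, where DZP array 1 lay within the Ctrl range. It gave 7.45, 7.42 and 7.59 in Ctrl hippocampus and 4.67, 4.51 and 5.63 in DZP hippocampus. In amygdala it gave 7.23, 7.10 and 7.19 in Ctrl and 4.49, 4.87 and 5.23 in DZP. The hippocampus and amygdala groups were separate by more than 1 log2 unit, and the differences were -1.02, -2.55 (adjusted p = 0.0339) and -2.31, with -1.96 (adjusted p = 0.0170) over the mean of regions. In hippocampus DZP array 3 alone was at -1.85 from the Ctrl mean.

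The brightest probe set, PSR1300016425, gave 11.01, 11.50 and 11.17 in Ctrl hippocampus and 9.87, 10.13 and 9.53 in DZP hippocampus. In cortex it gave 10.55, 11.05 and 10.62 in Ctrl and 9.88, 9.42 and 9.73 in DZP. In amygdala it gave 11.14, 11.35 and 11.75 in Ctrl and 10.29, 9.71 and 10.29 in DZP. It was lower without overlap in each region, with differences of -1.06, -1.38 (adjusted p = 0.0487) and -1.32 in cortex, hippocampus and amygdala. PSR1300016426 (-1.73, adjusted p = 0.0429) and JUC1300008683 (-1.56, adjusted p = 0.0487) were also called in hippocampus. DZP array 3 alone was at -1.69, -2.03 and -1.45 from the Ctrl mean for these 3 probe sets.

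Some stretches of Crhbp differed less. The junction JUC1300008685, named here after its values were seen, gave 9.60, 9.60 and 9.56 in Ctrl hippocampus and 9.60, 9.68 and 9.89 in DZP hippocampus, with differences of -0.11, 0.13 and -0.11 in the 3 regions, all from overlapping groups. The junction JUC1300008687 and the region PSR1300016431 were below 5 on every array and differed by no more than 0.21 in hippocampus and amygdala. In cortex JUC1300008687 differed by -0.10, whereas PSR1300016431 was lower in DZP without overlap (Ctrl 4.40, 4.13 and 3.84, DZP 3.73, 3.25 and 3.64, difference -0.58). When each probe set was taken relative to its gene on the same array (PSR use), 1 of the 108 passed over the mean of regions, against 1 of 529518 probe sets tested (0.000189%). This was JUC1300008687 (0.73 higher relative to the gene, adjusted p = 0.0307), which itself lay between 2.71 and 3.60 on all arrays while the gene-level signal differed. No probe set of the system passed in cortex, hippocampus or amygdala alone, against 0%, 0.0304% and 0% of those tested.

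Single arrays decided the exon-level calls. In hippocampus the 4 calls became 0 with any 1 of the 3 Ctrl arrays left out and with DZP array 2 left out, 1 without DZP array 1, 10 without DZP array 3 and 0 without DZP arrays 1 and 2 together. Over the mean of regions the 3 calls ranged from 0 to 11 when an array was left out, with 0 without Ctrl cortex array 2 or 3, DZP cortex array 2 or Ctrl hippocampus array 1, 1 without Ctrl hippocampus array 3 or DZP amygdala array 2, 5 without Ctrl amygdala array 2 and 11 without DZP hippocampus array 3.

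**Figure D3:**
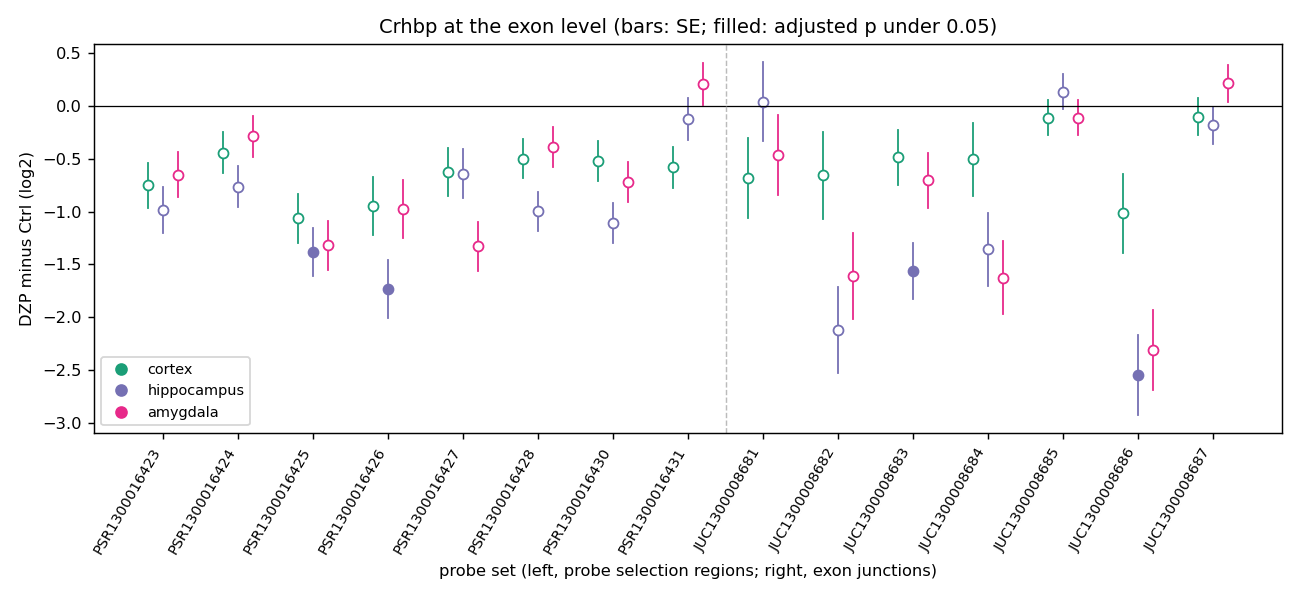
Difference of DZP from Ctrl (log2, vertical axis) for the 15 Crhbp probe sets in each region, with PSRs and junctions named along the horizontal axis. Filled points passed the adjusted test and bars are the SE, from 3 arrays a group. JUC1300008686 reaches -2.55 in hippocampus and -2.31 in amygdala, whereas JUC1300008685 stays near 0.

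Ucn3 had 3 PSRs and 1 junction, and all 4 were lower in DZP amygdala, 2 of them without overlap. Over all probe sets 6.30% were lower without overlap there, and 1 of these 2 was below 5 on every array. The difference was carried by PSR1300008622, which gave 7.05, 7.20 and 6.06 in Ctrl amygdala and 4.98, 5.08 and 5.15 in DZP amygdala (-1.70, adjusted p = 0.154). The DZP values were near those of Ctrl cortex (4.86, 4.83 and 4.95) and Ctrl hippocampus (4.33, 4.88 and 4.62). PSR1300008623 gave 6.85, 6.78 and 6.18 in Ctrl and 6.26, 6.27 and 6.06 in DZP amygdala, so that these groups overlapped. Its difference was -0.41.

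The other ligand genes had few probe sets. Of the 6 Ucn probe sets, PSR0500019786 lay between 10.30 and 11.95, and PSR0500019787 between 3.25 and 3.89. PSR0500019786 was higher without overlap in DZP cortex (Ctrl 10.30, 10.62 and 10.43, DZP 11.20, 11.30 and 10.81, difference 0.65, adjusted p = 0.847) and lower without overlap in DZP hippocampus (-0.43, adjusted p = 0.578). The junction JUC0500010804 gave 8.73, 8.67 and 8.10 in Ctrl hippocampus and 5.81, 5.18 and 8.18 in DZP hippocampus. DZP arrays 1 and 2 were low there and array 3 lay within the Ctrl range (difference -2.11, adjusted p = 0.153, and -0.32 for array 3 alone). This junction is a further place where those arrays part from array 3. For Crh, the junction JUC0300007055 lay between 9.35 and 10.90 with overlap between all regions. PSR0300013357 was higher in DZP without overlap in cortex (Ctrl 5.35, 5.51 and 5.46, DZP 6.36, 5.95 and 6.12) and hippocampus (Ctrl 5.00, 4.93 and 4.83, DZP 5.56, 5.08 and 5.37), by 0.70 and 0.42, with adjusted p of 0.669 and 0.352. PSR0300013355 went the other way in cortex, lower in DZP without overlap (Ctrl 7.34, 7.25 and 7.64, DZP 7.22, 6.42 and 7.05, difference -0.51, adjusted p = 0.854). Ucn2 had 2 PSRs, both below 5 on every array.

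**Figure D4:**
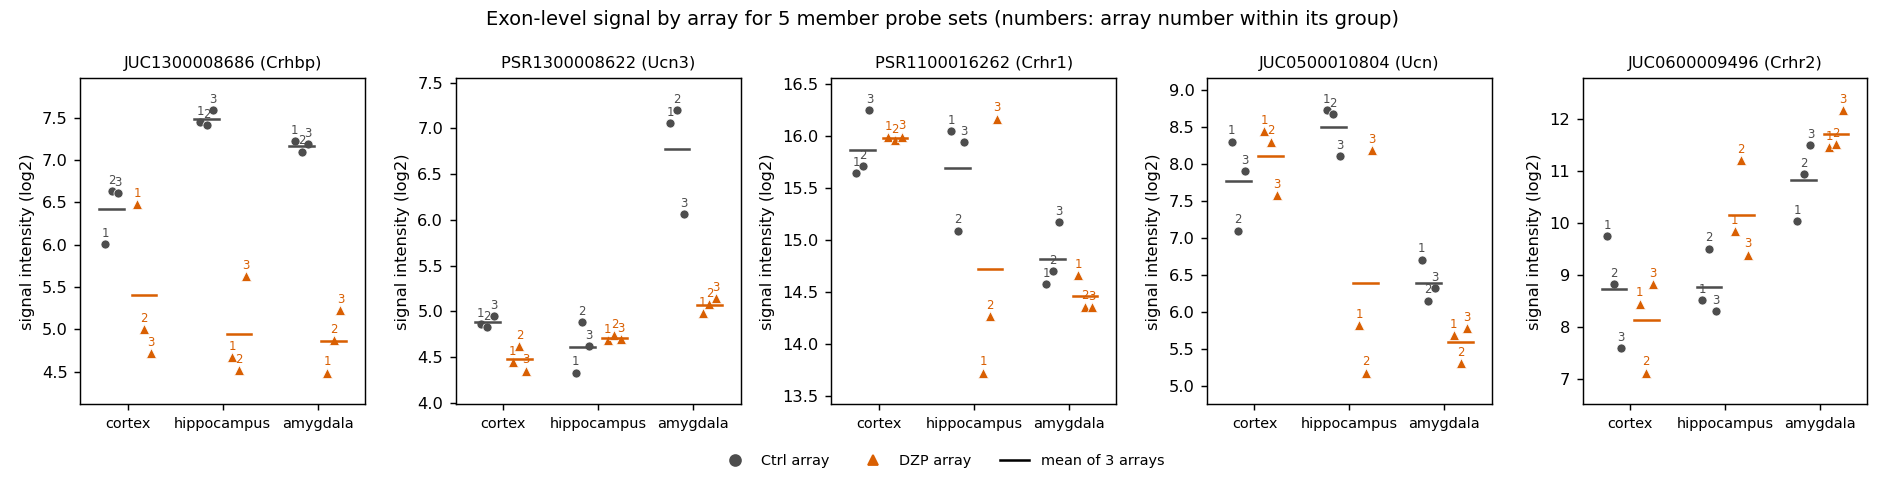
Exon-level signal intensity (log2, vertical axis) of 5 probe sets on each array, by region (horizontal axis) and treatment. Points are arrays numbered within their group and bars are group means. JUC1300008686 of Crhbp falls from above 7 to between 4.49 and 5.63 in hippocampus and amygdala, and PSR1300008622 of Ucn3 from above 6 to near 5 in amygdala.

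The regions were compared within Ctrl mice and within DZP mice, which asks where each gene is high and was not used to choose the genes. In Ctrl mice 4 of the 7 genes were called between hippocampus and cortex (2 higher, 2 lower), against 15.0% of all clusters. Between amygdala and cortex 4 were called (3 higher, 1 lower), against 15.5%. Between amygdala and hippocampus 3 were called, all higher in amygdala, against 10.3%.

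Crhr1 was highest in cortex, then amygdala, then hippocampus. In Ctrl mice hippocampus minus cortex was -1.33 (SE 0.07, adjusted p = 1.39e-09), amygdala minus cortex was -1.02 (adjusted p = 2.51e-08), and amygdala was above hippocampus by 0.31 (adjusted p = 0.00555). In DZP mice the first 2 differences were -1.15 (adjusted p = 7.86e-09, and -1.09 without DZP hippocampus arrays 1 and 2) and -1.01 (adjusted p = 3.70e-08), whereas amygdala and hippocampus did not pass (0.15, adjusted p = 0.206, and 0.08 without DZP hippocampus arrays 1 and 2). Crh was lower in hippocampus than in cortex (-0.82, adjusted p = 0.000922) and higher in amygdala than in hippocampus (0.80, adjusted p = 0.00167) in Ctrl mice, and cortex and amygdala did not differ beyond their spread (-0.02, adjusted p = 0.955). In DZP mice Crh was again lower in hippocampus than in cortex (-0.59, adjusted p = 0.0137), a call that was lost without DZP cortex array 1 (-0.38, adjusted p = 0.0653), without DZP hippocampus array 2 (-0.56, adjusted p = 0.0515), without DZP hippocampus arrays 1 and 2 (-0.57, adjusted p = 0.181) and in a fit of the compared arrays alone (adjusted p = 0.108). Without DZP cortex array 2, Crh was also called lower in amygdala than in cortex (-0.42, adjusted p = 0.0310). The hippocampus values of Crh were below the negative-control mean on every array.

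Ucn3 was highest in amygdala, by 1.30 over cortex (SE 0.12, adjusted p = 8.63e-07) and by 1.25 over hippocampus (adjusted p = 2.51e-06) in Ctrl mice, and cortex and hippocampus did not differ beyond their spread (0.05, adjusted p = 0.860). In DZP mice the amygdala was higher by 0.73 (adjusted p = 0.000408) and 0.53 (adjusted p = 0.00835). The second of these held without DZP hippocampus arrays 1 and 2 (0.64, adjusted p = 0.0371) and was lost with the median over PSRs (0.36, adjusted p = 0.231). At gene level Ucn3 was thus highest in amygdala in the arrays of both treatments.

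Crhbp was higher in amygdala (0.46, adjusted p = 0.0177) and in hippocampus (0.40, adjusted p = 0.0388) than in cortex in Ctrl mice, and amygdala and hippocampus did not differ beyond their spread (0.06, adjusted p = 0.857). The hippocampus call was lost without any 1 of the 6 arrays compared (0.33 to 0.45, adjusted p = 0.0555 to 0.143), and the amygdala call without Ctrl cortex array 1 (0.39, adjusted p = 0.0761) or Ctrl amygdala array 3 (0.30, adjusted p = 0.0869). Both were lost with the median over PSRs (0.12, adjusted p = 0.768, and 0.42, adjusted p = 0.149), the hippocampus call with median centring (adjusted p = 0.0614) and the amygdala call in a fit of the compared arrays alone (adjusted p = 0.113). In DZP mice the same differences were 0.32 (adjusted p = 0.0859) and 0.08 (adjusted p = 0.784), and none passed.

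Crhr2 was higher in amygdala than in cortex by 0.30 (adjusted p = 0.0128) in Ctrl mice and by 0.40 (adjusted p = 0.00173) in DZP mice, and the latter call was lost with the median over PSRs (0.31, adjusted p = 0.141). In DZP mice its amygdala level was above hippocampus by 0.24 (adjusted p = 0.0574), which passed without DZP hippocampus array 2 (0.31, adjusted p = 0.0217), without DZP amygdala array 3 (0.32, adjusted p = 0.0185) and without DZP hippocampus arrays 1 and 2 (0.36, adjusted p = 0.0475). Ucn was higher in hippocampus than in cortex by 0.27 (adjusted p = 0.0218) in Ctrl mice, a call that was lost without Ctrl cortex array 3 (0.23, adjusted p = 0.101) or Ctrl hippocampus array 2 (0.23, adjusted p = 0.104), with median centring (adjusted p = 0.0916), in a fit of the compared arrays alone (adjusted p = 0.0600) and with the median over PSRs (0.15, adjusted p = 0.632). Ucn2 passed between no regions. At gene level both lay below the negative-control mean on every array, as did Crhr2.

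In DZP mice 2 genes were called between hippocampus and cortex, both lower, against 12.3% of all clusters. Between amygdala and cortex 3 were called (2 higher, 1 lower), against 20.4%, and between amygdala and hippocampus 1 was called higher, against 10.7%.

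**Figure D5:**
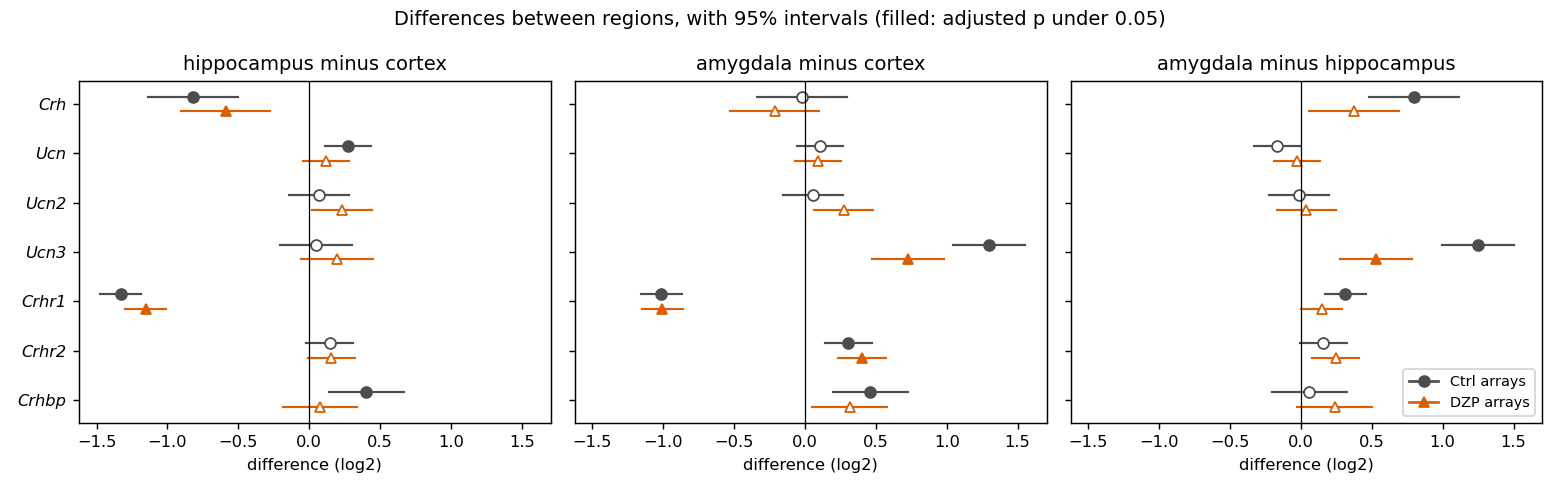
Differences between regions (log2, horizontal axis) for the 7 genes within Ctrl mice and within DZP mice. Points are fitted differences, filled where the adjusted test was passed, and bars their 95% confidence intervals, from 3 arrays a group. Crhr1 is lowest in hippocampus, at -1.33 against cortex in Ctrl, and Ucn3 is highest in amygdala, at 1.30 against cortex in Ctrl and 0.73 in DZP.

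The order of Crhr1 was seen along most of the gene. Of its 34 probe sets, 30 were lower in Ctrl hippocampus than in Ctrl cortex and 17 were called lower, with a median difference of -1.10, against 9.03% of all probe sets. Between Ctrl amygdala and cortex 30 were lower and 17 were called lower, against 10.6%. Between Ctrl amygdala and hippocampus 4 were called, all higher in amygdala, against 7.09%. In DZP mice 18 were called lower in hippocampus than in cortex (9.70% of all probe sets called) and 21 lower in amygdala than in cortex (16.5%), with none called between amygdala and hippocampus (5.28%).

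Within Ctrl mice, PSR1100016274 had the largest regional difference of Crhr1. It gave 12.72, 12.47 and 12.65 in Ctrl cortex, 9.81, 9.84 and 10.25 in Ctrl hippocampus and 11.20, 11.39 and 10.85 in Ctrl amygdala. The regions did not overlap, and hippocampus minus cortex was -2.65. The brightest, PSR1100016262, gave 15.64, 15.71 and 16.25 in Ctrl cortex and 16.05, 15.09 and 15.94 in Ctrl hippocampus, where the groups overlapped. In DZP hippocampus it gave 13.73, 14.27 and 16.17, and arrays 1 and 2 again parted from array 3 (difference from Ctrl -0.97, and 0.47 for array 3 alone). Relative to the gene, 13 of the 34 Crhr1 probe sets passed between Ctrl hippocampus and cortex (9 higher, 4 lower, against 2.78% of those tested), 5 between Ctrl amygdala and cortex (against 3.37%) and 2 between Ctrl amygdala and hippocampus (against 2.03%). PSR1100016274 was lower in hippocampus relative to its gene (-1.32), and PSR1100016264 (8.59, 8.50 and 8.55 in Ctrl cortex, 8.44, 8.51 and 8.77 in Ctrl hippocampus) was higher relative to its gene by 1.35, its own signal overlapping between the regions.

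Crhr2 was covered by 27 PSRs and 16 junctions. In Ctrl mice 30 of the 43 were higher in amygdala than in cortex and 11 were called higher (10.6% of all probe sets called). Between hippocampus and cortex 2 were called higher, a smaller share than over all probe sets (9.03%), and between amygdala and hippocampus 5 were (7.09% over all). In DZP mice 16 were called higher and 1 lower in amygdala than in cortex (16.5% over all). The junction JUC0600009496 gave 9.76, 8.83 and 7.59 in Ctrl cortex and 10.05, 10.95 and 11.51 in Ctrl amygdala, with no overlap (2.11, adjusted p = 0.0304). In DZP amygdala it gave 11.47, 11.52 and 12.18. The brightest probe set of the gene, JUC0600009499, lay between 10.70 and 12.34. Of the Ucn3 probe sets, 3 of 4 were called higher in Ctrl amygdala than in cortex (10.6% over all) and 3 of 4 than in hippocampus (7.09%). In DZP mice 2 of its 3 PSRs were called higher in amygdala than in cortex (16.5% over all) and 0 than in hippocampus (5.28%). The Ucn3 junction was lower in DZP amygdala than in DZP cortex (-0.12). Of the Crhbp probe sets, 3 of 15 were called higher in Ctrl amygdala than in cortex (10.6% over all).

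The genes that act with the CRH system gave no called difference between DZP and Ctrl. Few clusters of any kind were called: 0.0364% in cortex, 0.0728% in hippocampus, 0% in amygdala and 0.0788% over the mean of regions. Nothing is therefore read from the absence of calls in these lists. Of the 25 measured genes of CRH receptor signalling (Gs, adenylyl cyclases, protein kinase A, CREB factors and receptor desensitisation), none was called in a region or over the mean of regions, and the median differences were 0.02, 0.09 and -0.05 in cortex, hippocampus and amygdala (-0.00, -0.01 and 0.03 over all clusters). The adenylyl cyclase Adcy5, an enzyme known for its abundance in striatum, had the largest of their differences in amygdala, at 0.65 (adjusted p = 0.350). Of the 18 stress axis genes none was called, and Sgk1, a kinase induced by corticosteroids, gave -0.44 (adjusted p = 0.494) in hippocampus. Of the 10 peptide processing genes none was called. Of these, 8 were lower in DZP amygdala (median -0.13) and 9 over the mean of regions (median -0.04), and the convertase Pcsk1 gave -0.50 (adjusted p = 0.421) in amygdala. Of the 13 other secretin-class receptors none was called, and 10 were higher in DZP hippocampus (median 0.10), where Adcyap1r1, the PACAP receptor, gave 0.32 (adjusted p = 0.172).

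Between regions many genes of these lists were called. In Ctrl mice 15 of the 25 signalling genes were called between amygdala and cortex (7 higher, 8 lower, against 15.5% of all clusters). Adcy1, a calcium-stimulated adenylyl cyclase, was lower in amygdala (-2.001) and Adcy5 higher (2.09). The protein kinase A subunits Prkacb (-1.11) and Prkar2b (-1.02) were lower in hippocampus than in cortex. Of the stress axis genes, 9 of 18 were called between amygdala and cortex (6 higher, 3 lower, against the same 15.5%). Oxtr, the oxytocin receptor, was higher by 1.47 and Trh, thyrotropin-releasing hormone, by 2.02. Nr3c2, the mineralocorticoid receptor, was higher in hippocampus than in cortex by 2.95, and Nr3c1, the glucocorticoid receptor, was lower (-0.63). Among peptide processing genes, Pcsk1 was lower in hippocampus than in cortex (-1.33) and the granin Scg2 was higher in amygdala than in cortex (1.57). Among the secretin-class receptors, Glp1r was higher in hippocampus (1.14) and in amygdala (1.54) than in cortex. The medians of the signalling list were 0.01, 0.10 and 0.15 for hippocampus against cortex, amygdala against cortex and amygdala against hippocampus, beside 0.04, 0.03 and -0.00 over all clusters.

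Because Crhbp is made in large part by GABA neurons, 20 interneuron markers were set beside it. In cortex 16 were lower in DZP (median -0.10) and 1 was called, Npy, the neuropeptide Y gene (-0.90, adjusted p = 0.0338). In hippocampus 10 were lower (median 0.00) and Npy was called (-1.36, adjusted p = 0.00197). In amygdala 13 were lower (median -0.18) and none was called. Over the mean of regions Npy (-0.86, adjusted p = 0.000586) and Sst, the somatostatin gene (-0.74, adjusted p = 0.0284), were called.

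Npy gave 13.05, 13.34 and 13.33 in Ctrl cortex and 12.67, 12.28 and 12.06 in DZP cortex. It gave 11.70, 11.36 and 11.61 in Ctrl hippocampus and 10.14, 10.20 and 10.26 in DZP hippocampus. In amygdala it gave 12.36, 12.28 and 12.22 in Ctrl and 12.16, 11.75 and 11.97 in DZP. Npy, too, was lower without overlap in each region. It was also among the genes for which the study's qRT-PCR showed no apparent change. Sst gave 15.46, 14.86 and 15.60 in Ctrl hippocampus and 14.78, 14.81 and 14.20 in DZP hippocampus, without overlap, and it was lower without overlap in cortex (Ctrl 15.31, 15.56 and 15.30, DZP 14.52, 14.33 and 14.31). In amygdala its groups overlapped (Ctrl 16.90, 16.84 and 16.50, DZP 16.14, 16.04 and 16.55). Gad1 and Gad2, which encode the GABA-synthesising enzymes, differed by -0.30 (adjusted p = 0.143) and -0.14 (adjusted p = 0.739) over the mean of regions. Npy, Sst, Gad1 and Gad2 do not stand for the whole list. Of the 20 markers, 4, 10 and 7 were higher on average in DZP cortex, hippocampus and amygdala. The mean of the list was 9.11 to 9.18 in Ctrl and 8.93 to 9.0 in DZP cortex, 8.92 to 9.16 and 8.89 to 9.01 in hippocampus, and 9.72 to 10.05 and 9.70 to 9.78 in amygdala. In hippocampus all 16 vascular and meningeal markers were higher in DZP (median 0.19), with means of 7.23 to 7.31 in Ctrl and 7.37 to 7.79 in DZP. The part of these lists in the Crhbp difference was not tested.

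The genes most like each member were found by Pearson correlation over the 18 arrays, which share their regions, among 11621 coding genes at or above the median signal. Crhbp was most like Alkal2 (r = 0.84), Smarca5 (0.81), D830030K20Rik (0.78), Gm9758 (0.77) and Nkap (0.74). After the mean of each region was subtracted, it was most like Fosb (0.92), Hapln1 (0.92), Alkal2 (0.88), Npy (0.86) and Luzp2 (0.85). The difference between DZP and Ctrl was left in both measures. Each of the genes from Fosb to Luzp2 was lower in DZP on average in every region, as Crhbp was. This ranking therefore restates the DZP difference and is no separate evidence of a shared pattern. Fosb, a gene induced by neuronal activity, gave 6.82, 6.87 and 6.95 in Ctrl hippocampus and 6.47, 6.43 and 6.29 in DZP hippocampus. Those groups did not overlap, and in amygdala, too, the DZP values (7.06, 6.72 and 6.92) were below the Ctrl values (7.18, 7.45 and 7.59). In cortex (Ctrl 7.46, 7.67 and 7.70) DZP array 1, at 7.54, was within the Ctrl range. It was also the highest of the 3 DZP cortex arrays for Crhbp.

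Crhr1 was most like Herc6, Exph5, Lamp5, Cux2 and Tlcd4 (r = 0.99 for each), of which Lamp5 and Cux2 are known from upper cortical layers. With region means subtracted it was most like Ttll12 (0.82). Crh was most like Odf2l (0.90), Csnk2a2 (0.89), Nap1l1, Crip2 and Dpy19l1 (0.88 each), and with region means subtracted its highest value was 0.69 (Lactb). Crhr2 was most like Krtap5-1 (0.96), Ano2 (0.93), Btbd19 (0.92), Ppp1r2 and Dtd1 (0.91 each), and with region means subtracted Loxl3 (0.88). Ucn, Ucn2 and Ucn3 were below the median signal and were not compared.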

How the data were processed

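RNA (100 ng a sample) from cortex, hippocampus and amygdala of Ctrl and DZP mice was hybridised to Affymetrix MTA 1.0 arrays. The deposited values are log2 signal intensities per transcript cluster and per probe set, which the authors computed in Affymetrix Expression Console (version 1.4.1, as the processing notes of the submitters name it). The summarisation and normalization settings are not given in the sources used here. Control probe sets were left out, and no scaling, filter or pseudocount was added. The number of arrays limits the precision.

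Samples were grouped by treatment and region from the labels, 3 arrays in each of 6 groups. A linear model with 6 group means and moderated variances (limma 3.58.1 in R 4.3.3, tables read by the package data.table, version 1.17.8) was fitted to all clusters, and another to all PSRs and junctions. The same model was also fitted to each probe set minus its cluster on the same array (PSR use). P-values were adjusted by Benjamini-Hochberg over all features of a contrast, with a threshold of 0.05, and were two-sided. The steps were tested on simulated data. Gene symbols in the annotation were updated through RefSeq, which changed 325 of them.

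The 7 genes and the gene lists were chosen with earlier results of these data known. Besides the 7 genes, at most 4 genes of a list were named for each contrast, those with the largest differences past the threshold, or at most 2 with values where none passed. For each member at or above the median signal, the 5 genes with the most similar values were named, and at most 6 probe sets a gene: the brightest, the one with the largest difference and those past the threshold. The probe sets JUC1300008685, PSR1300016431, PSR0500019787, PSR0300013353 and PSR0300013355, and the interneuron genes Gad1 and Gad2, were named after their values were seen.

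The alternatives were median centring, quantile normalization, array weights, a fit of the compared arrays alone and a filter on low signal. The study's analysis of variance and its criteria were run too, as was the median over PSRs. Blocks for replicate number and for mouse (taken as treatment and number) were fitted, and each array was left out. Leaving out DZP hippocampus arrays 1 and 2 together, and the block and the left-out arrays at exon level, were added after the data were seen. The replicate numbers were checked for pairing by the correlation of deviations from group means. Same-numbered arrays of one treatment in different regions gave r from -0.155 to 0.417 (6 of 18 pairs over 0.1), and those of one region in both treatments -0.098 to 0.203 (2 of 9 pairs), so the numbers were not taken to pair the arrays.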

Additional observations from a re-analysis of the deposited data

Results flagged for a closer look

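The Crh difference between DZP and Ctrl ran in opposite directions in hippocampus and amygdala. All 3 DZP hippocampus arrays (6.55, 6.46 and 6.54) were above all 3 Ctrl arrays (6.37, 6.16 and 6.30), and all 3 DZP amygdala arrays (7.004, 6.96 and 6.71) were below all 3 Ctrl arrays (7.09, 7.12 and 7.01). The test of the difference itself, amygdala minus hippocampus, gave -0.42 (SE 0.21, 95% confidence interval -0.87 to 0.02, limma adjusted p = 0.551) and did not pass. It was -0.45 (adjusted p = 0.741) without DZP hippocampus arrays 1 and 2. At exon level the PSRs of Crh were not uniform in amygdala: PSR0300013353 gave -0.43, PSR0300013357 gave -0.23 and PSR0300013355 gave 0.00. The junction JUC0300007055 gave 0.47. At gene level every hippocampus value of Crh was below the negative-control mean.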

How the results depend on the processing

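No member difference between DZP and Ctrl that passed changed sign under any alternative run. The Crhbp difference over the mean of regions passed under all of them (-0.89 to -0.70). With median centring, 2 genes rather than 4 were called between Ctrl hippocampus and cortex. With the median over PSRs the calls were 2 there, 0 for DZP against Ctrl in hippocampus, 1 in amygdala and 2 over the mean of regions (Ucn3 joining Crhbp), and 0 between DZP amygdala and hippocampus. The gained Ucn3 calls compare different probe sets, since the median of its 3 PSRs was PSR1300008623 on Ctrl amygdala arrays 1 and 2 and PSR1300008622 on the DZP amygdala arrays, so they are not read as a result. With the fit of the compared arrays alone, 1 gene was called between DZP hippocampus and cortex. Array weights called 1 in cortex. The study's criteria, with no adjustment, called 1 in cortex and 2 in amygdala, and its test after adjustment called 0 in hippocampus. Without DZP hippocampus arrays 1 and 2, a choice made after the data were seen, 0 were called for DZP against Ctrl in hippocampus, 1 between DZP hippocampus and cortex and 2 between DZP amygdala and hippocampus, and 0 probe sets in hippocampus. With the filter on low signal, 6 probe sets were called over the mean of regions, and for PSR use 1 in hippocampus and 0 over the mean of regions. With the median of the PSRs as the baseline of PSR use, 0 were called over the mean of regions.

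When each array was left out, the number of genes called for DZP against Ctrl was 0 in cortex, 0 to 1 in hippocampus, 0 to 1 in amygdala and 1 over the mean of regions. Between regions it was 2 to 3 for hippocampus against cortex in Ctrl and 1 to 2 in DZP, and 1 to 2 for amygdala against hippocampus in DZP. The number of probe sets called was 0 to 10 in hippocampus, 0 to 1 in amygdala and 0 to 11 over the mean of regions, and for PSR use 0 to 7 in hippocampus and 0 to 4 over the mean of regions.

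With the replicate number as a block the genes called were the same in number in every contrast, although the clusters called over all genes went from 48 to 203 in hippocampus and from 52 to 263 over the mean of regions, and the probe sets of the system from 4 to 2 in hippocampus. Of 18 arrays, 10 correlated best with an array of their own number in another region. With treatment and number taken to stand for the mouse, as a random block, the consensus correlation was 0.0069 and no count of genes changed. No label says that the number stands for the mouse. This fit therefore cannot show whether arrays of one mouse are alike. Another cluster of the same gene could not be tried, since each gene had 1. The cause of these changes was not tested. Signal over background limits the gene-level values of Ucn, Ucn2, Ucn3 and Crhr2, which were below the negative-control mean on 18 of 18 arrays. It also limits Crh in hippocampus, where every array was below that mean. No exon-level negative-control mean is given here. Single probe sets of Ucn and Crhr2 were above the exon-level array medians (6.90 to 6.94), as was PSR1300008622 of Ucn3 on Ctrl amygdala arrays 1 and 2.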
